A study of Homo sapiens with 3 samples.

Results

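SNORD14A is 1 of 260 entries with reads in 3 small RNA libraries of HEK293, a line derived from human embryonic kidney, and it was taken from the deposited box C/D files by its entry name, U14A. It was chosen by the size and position of its reads in these libraries, many being short and at the 3′ end, so its read sizes and the side its reads fall on are given as a description, without a test. The libraries form 1 group of cells grown in DMEM with serum and antibiotics, with no treatment or allele named, and the labels do not say whether they came from separate cultures. The entry held 134 of 51039 reads, in 60 separate records, each record being 1 line of the file with a read length, a first and last position in the snoRNA and a count. The only other U14 entry, SNORD14B (U14B), held 28 reads in 22 records and serves as a comparison.

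U14 is a box C/D snoRNA found from yeast to human. Box C, near the 5′ end, and box D, near the 3′ end, are the sequences that bind the core proteins of these particles, and the ends of the RNA pair into a short terminal stem around them. In a guide of this class the bases directly before box D pair with ribosomal RNA and direct 2′-O-methylation of a base there. U14 pairs with 18S rRNA through such a stretch and through another one nearer its 5′ end, and in yeast the RNA is needed to make 18S rRNA. Human snoRNAs of this kind are cut out of introns of host genes, and the U14 copies lie in introns of RPS13, a protein of the small ribosomal subunit, and HSPA8, the constitutive HSP70 chaperone.

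GENCODE 29 (GRCh38) places SNORD14A on the minus strand of chromosome 11 at 17074654 to 17074744, 91 bases, inside an intron of RPS13 that runs from 17074467 to 17075096, with 187 bases between it and the downstream exon. SNORD14B lies on the same strand at 17075779 to 17075868 (90 bases), in another RPS13 intron, though 1 of the 10 RPS13 transcripts has it in an exon. SNORD14C, SNORD14D and SNORD14E lie within HSPA8, starting at 123059335, 123058909 and 123058077, and 2 of its 24 transcripts have SNORD14C and SNORD14D in an exon. The last 3 had no entry of their own among those with reads, and whether reads were matched to them is not known. The sequence of SNORD14A is shown to place the read ends, with box C (positions 6 to 12) and box D (84 to 87) in capitals. Below it are the reference bases at the positions of its leading fragments, with box D in capitals. Reads listed at 22 to 91 were 67 nt long over 70 positions, so the bases given there are not the sequence of those reads. All are 5′ to 3′ in DNA letters, from GENCODE 29.

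SNORD14A, positions 1 to 91, chr11:17074654-17074744: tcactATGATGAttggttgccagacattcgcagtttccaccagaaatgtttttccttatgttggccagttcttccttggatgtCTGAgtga
SNORD14A, positions 68 to 90, chr11:17074655-17074677: gttcttccttggatgtCTGAgtg
SNORD14A, positions 68 to 87, chr11:17074658-17074677: gttcttccttggatgtCTGA
SNORD14A, positions 22 to 91, chr11:17074654-17074723: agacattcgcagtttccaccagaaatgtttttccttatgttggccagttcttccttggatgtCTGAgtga

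The files hold positions but no read sequences, and positions were read as counted from the first base above because the highest position seen, 91, is the annotated length. For SNORD14B the highest position, 92, is above the annotated 90, so its positions were not turned into sequence. The first 5 bases of SNORD14A are the reverse complement of its last 5, the terminal stem. Boxes were searched on the given strand as ATGATGA or GTGATGA and as CTGA, and each occurs once in SNORD14A.

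Library totals were 19989, 11958 and 19092 reads, and reads of up to 40 nt made up 11.9%, 27.3% and 12.1% of them, so library 2 held shorter reads than the others. Reads carry no molecular identifiers, so the binomial intervals given here cover counting error only.

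SNORD14A had a mean level below the box C/D median, and its reads were mostly not full length. Gapped reads, whose length differs from their span, were 17, 5 and 24 of its reads. Without gapped records its mean level was 0.213% and its mean share of full-length reads 12.9%. It had 36, 16 and 82 reads in libraries 1, 2 and 3, which are 0.180%, 0.134% and 0.429% of all snoRNA reads, with exact 95% intervals of 0.126% to 0.249%, 0.0765% to 0.217% and 0.342% to 0.533%. Library 3 stood above the others, its interval overlapping neither, and the highest share was 3.21-fold the lowest. The mean was 0.248% ± 0.16 (SD, n = 3), rank 86 of 147 box C/D entries, beside a median of 0.332% over those entries. Without library 3 the mean was 0.157%. SNORD14B, the neighbour in the same host gene, had 13, 4 and 11 reads, or 0.0520% ± 0.017 (SD, n = 3), rank 127. SNORD14A thus had 2.77, 4 and 7.45 reads for each SNORD14B read, more in 3 of 3 libraries. A two-sided exact permutation test that flips the sign of the log ratio per library gave p = 0.25, and no smaller p is possible with 3 libraries.

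Reads counted as full length, with a span of 90% of the snoRNA or more, were 3 of 36, 1 of 16 and 11 of 82 SNORD14A reads. That is a mean of 9.33% ± 3.7, against 69.8% ± 7.2 for SNORD14B and 65.3% ± 6.8 for the other box C/D entries combined (SD, n = 3 each). In SNORD14B full-length reads were 8 of 13, 3 of 4 and 8 of 11, so SNORD14A had the lower share in every library. Reads of 20 to 24 nt, the size of a miRNA, were 15, 10 and 50 of the SNORD14A reads, a mean share of 55.0% ± 12 (SD, n = 3). In SNORD14B they were 0 of 13, 0 of 4 and 0 of 11, which with a floor of 3 counts allows shares of up to 23.1%, 75.0% and 27.3%, and in the other box C/D entries they were 2.91% ± 1.1 (SD, n = 3).

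Nearly every short SNORD14A read lay at the 3′ end. Reads of up to 40 nt that reached within 5 nt of the last position were 15 of 15, 10 of 10 and 49 of 51 short reads, or 54.6% ± 11 of all SNORD14A reads, against 2.56% ± 4.4 in SNORD14B and 6.03% ± 4.1 in the other box C/D entries (SD, n = 3 each). By this share SNORD14A ranked 1 of the 108 box C/D entries with at least 10 reads in every library, whose median was 3.55%. That place rests on library 3. SNORD14A ranked 2 in library 1, tied for the highest share with SNORD13 in library 2, and ranked 2 in the mean without library 3 (52.1%), where SNORD13 had 53.8%; these ranks were added after its values were seen. Short reads at its 5′ end numbered 0, 0 and 1, so the 3′ fragment had almost no 5′ counterpart of similar size.

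**Figure D1:**
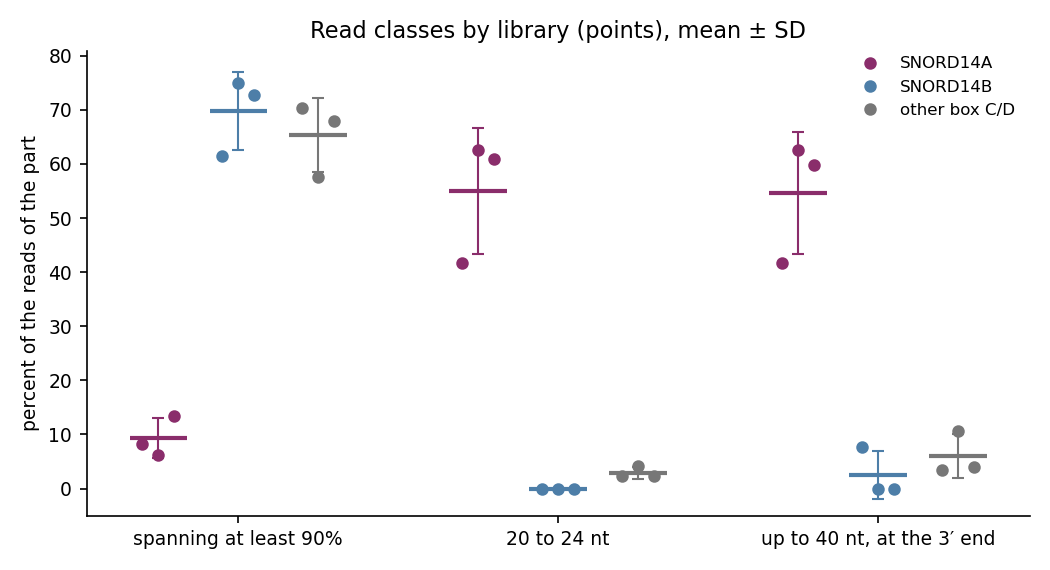
Shares of reads that span at least 90% of the snoRNA, are 20 to 24 nt long, or are up to 40 nt long and at the 3′ end, for SNORD14A, SNORD14B and all other box C/D entries; points are libraries 1, 2 and 3 from left to right, and bars are mean ± SD (n = 3). SNORD14A has few full-length reads (9.33%) and many short 3′ reads (54.6%), while SNORD14B lies near the other entries.

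The short reads were of 1 main kind. The fragment from position 68 to 90 had 14, 7 and 42 reads, which are 38.9%, 43.8% and 51.2% of the SNORD14A reads with exact 95% intervals of 23.1% to 56.5%, 19.8% to 70.1% and 39.9% to 62.4%. The 3 intervals overlap, although the share of SNORD14A in its library differed, and the mean was 44.6% ± 6.2 (SD, n = 3). At 23 nt it gave the commonest length among short SNORD14A reads in every library, against 29, 29 and 28 nt for short box C/D reads at large. SNORD14A had 0 reads of 27 to 31 nt, a band that held 6.60% ± 4.7 (SD, n = 3) of the reads of the other box C/D entries.

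Placed on the sequence, the fragment holds 16 bases before box D, the whole of box D and 3 bases after it. It leaves out the last base of the RNA, and with it 1 base of the terminal stem. Another kind, from 68 to 87, stops at the last base of box D and had 0, 2 and 2 reads. Reads from 68 to 91, with the last base included, numbered 1, 0 and 1. First positions were sharply set, with 15, 9 and 45 reads starting at 68, and 74 reads in all starting from 65 to 72. The remaining kinds there had 1 read each, at 72 to 91 in library 2 and at 65 to 88, 69 to 90, 71 to 90 and 71 to 91 in library 3.

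No read ended where this fragment begins. Reads with last position 67 numbered 0 of 36, 0 of 16 and 0 of 82, which allows shares of up to 8.33%, 18.8% and 3.66%, and none of the 134 reads ended from 60 to 70. Reads confined to the first 67 positions numbered 1, 0 and 2 (1 to 43, and 1 to 34 and 22 to 44), against 15, 10 and 49 short 3′ reads. How well a piece from 1 to 67 would have been captured was not tested.

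**Figure D2:**
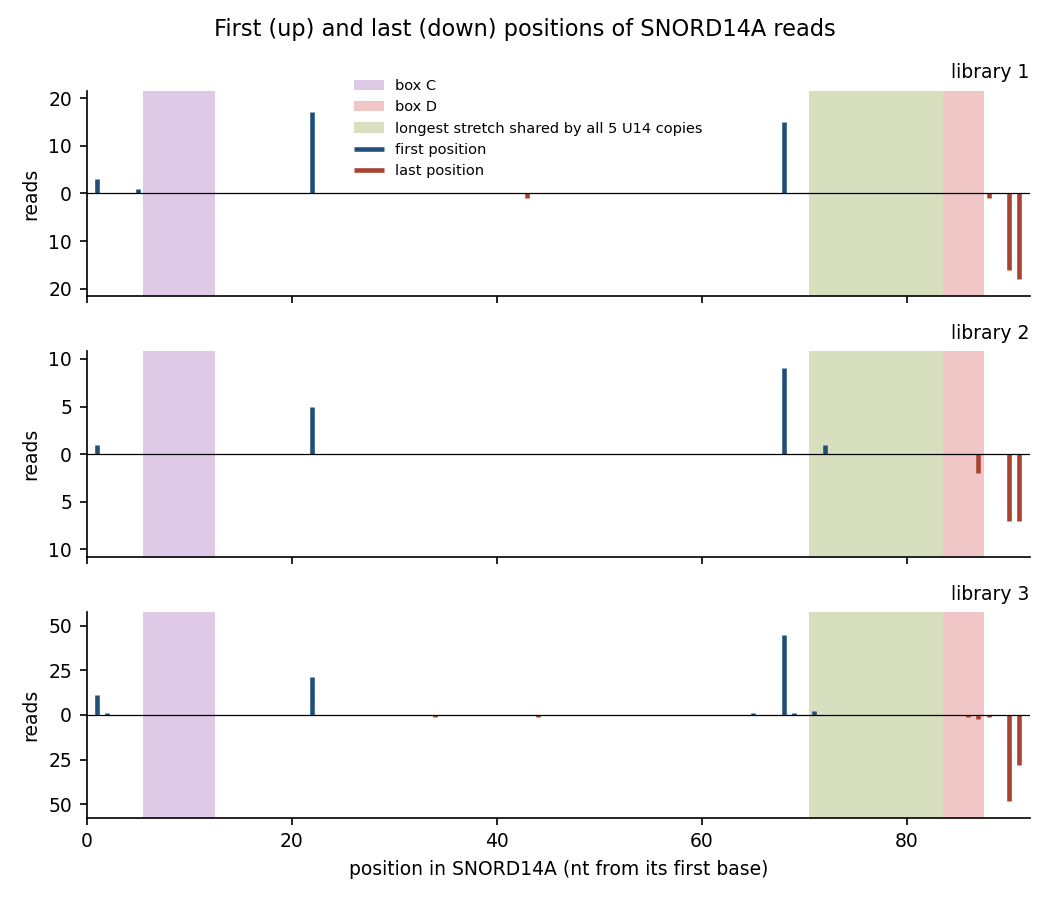
Number of SNORD14A reads by first position (upward) and last position (downward) in each library, with box C, box D and the longest stretch shared by the U14 copies shaded. Starts gather at 22 and 68, ends gather at 90 and 91, and no read ends at 21 or 67.

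The second place where reads began was position 22, 9 bases past box C. The fragment from 22 to 91 was listed with 15, 5 and 16 reads, or 41.7%, 31.3% and 19.5% of the SNORD14A reads (30.8% ± 11, SD, n = 3), and its share was lowest in library 3, where the 23 nt fragment was highest. In all, 17, 5 and 21 reads started at 22, against 4, 1 and 12 that started at positions 1 to 5. Coverage therefore stepped up along the RNA, with 3 to 4, 1 and 11 to 12 reads over positions 1 to 21, 20 to 21, 6 and 31 to 33 over positions 22 to 67, and 34 to 35, 14 to 16 and 76 to 80 over positions 68 to 90 in libraries 1, 2 and 3. No read ended at 21.

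**Figure D3:**
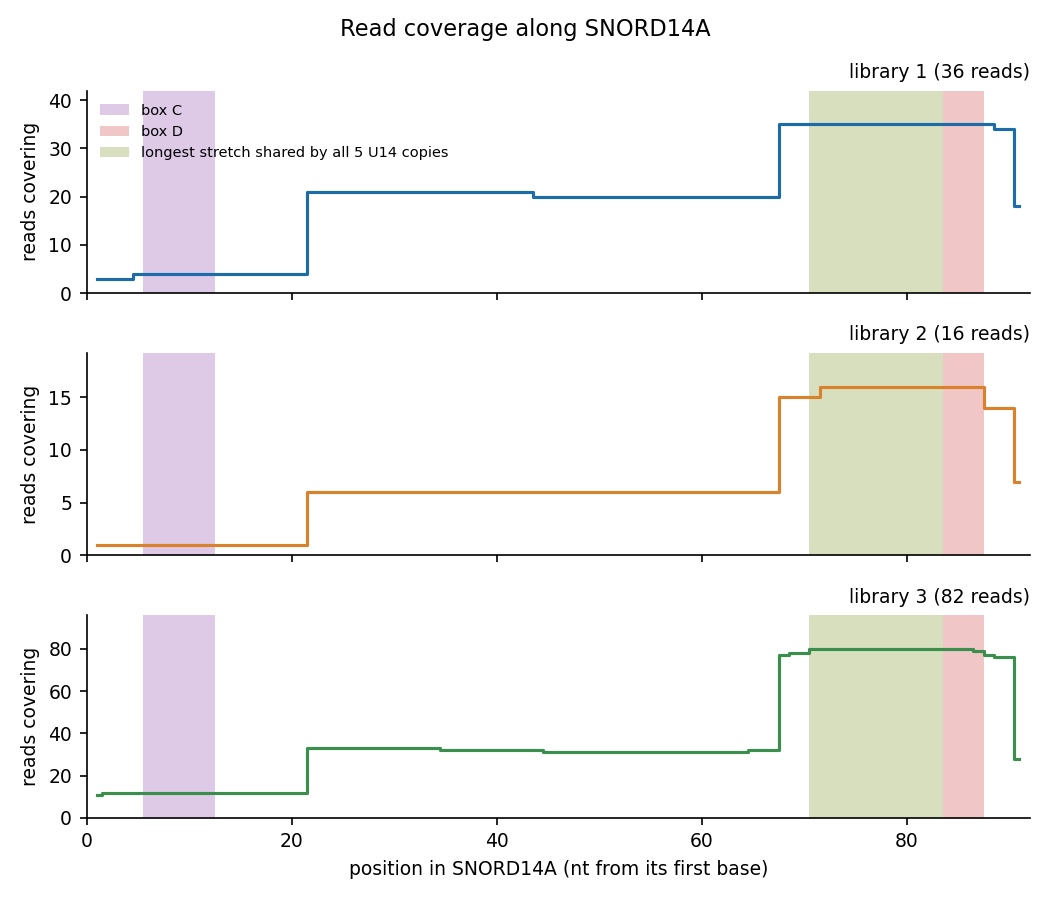
Number of reads covering each position of SNORD14A in the 3 libraries, with box C, box D and the longest stretch shared by the U14 copies shaded; gapped reads are drawn over their whole span. Coverage steps up at positions 22 and 68 in each library, to at most 35, 16 and 80 reads over the shared stretch before box D.

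The reads starting at 22 differ from the others in their alignment. All 42 of them that ran to position 86 or beyond were shorter than the span they were given, by 3 to 6 nt, and the 22 to 91 reads were 67 nt long over 70 positions. Among reads starting at 65 to 72 such gaps were found in 0 of 74, and among reads starting at 1 to 5 in 4 of 17, where lengths lay between 2 nt below and 1 nt above the span. The U14 copies differ in length and in sequence here. In an alignment of the 5 U14 copies, the part matching positions 22 to 91 of SNORD14A has 70 bases in SNORD14B, 67 in SNORD14C, and 66 in SNORD14D and SNORD14E, and for 22 to 90 it has 69, 66, 65 and 65 bases. The reads listed at 22 to 90 were 66, 65 and 63 nt long. Beside these gaps, 14 aligned bases of SNORD14C, 7 of SNORD14D and 11 of SNORD14E differ from SNORD14A in this part, and 12 of SNORD14B do. Which copy gave these reads was not tested, and the read sequences are not in the files used here. Without gapped records the fragment at 68 to 90 made up 69.9% of the remaining SNORD14A reads and short 3′ reads 84.8%.

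The 3′ stretch is the part that the copies share most. The longest run of bases identical in all 5 copies is 13 bases long, from 71 to 83, and it ends directly before box D, where the guide stretch of a box C/D snoRNA lies. Shorter shared runs of at least 6 bases are the core of box C (7 to 12), 25 to 30 and 33 to 42. The fragment at 68 to 90 spans the whole of the longest run. To show where the copies still differ in it, the bases of each copy that match positions 68 to 90 are given with substitutions and extra bases against SNORD14A in capitals.

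SNORD14A: gttcttccttggatgtCTGAgtg (here capitals mark box D)
SNORD14B: AACcttccttggatgtctgagtg
SNORD14C: CACcttccttggatgtctgagCg
SNORD14D: gTtCcttccttggatgtTtgagCg
SNORD14E: CTACcttccttggatgtctgagtg

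In this alignment SNORD14B differs from SNORD14A at 3 bases here, SNORD14C at 4, and SNORD14D and SNORD14E at 3 with 1 extra base each. The place of the extra base is that chosen by the aligner. Set elsewhere, it would leave fewer substitutions and other capitals in SNORD14D and SNORD14E. CTGA has no match in SNORD14D. The 23-base sequence as SNORD14A has it occurs in 1 of 206694 GENCODE transcripts, SNORD14A itself. Of 4107 mature and hairpin miRNA entries of RefSeq (GRCh38.p14), 0 hold any 15 bases in a row of it.

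The fragment at 68 to 90 was split over many records. Library 1 had 5 records with 8, 3, 1, 1 and 1 reads, library 2 had 4 records with 2, 2, 2 and 1, and library 3 had 10, of which 4 had 15, 10, 6 and 5 reads and 6 had 1 each. These records share length and both ends, so the listed fields do not tell them apart. The largest record held 57.1%, 28.6% and 35.7% of the fragment's reads. For comparison, all short ungapped box C/D fragments with at least 7 reads in a library were taken, a limit chosen after the SNORD14A values were seen. Among these 25, 37 and 23 fragments the largest record held a median of 96.0%, 90.9% and 97.7% of the reads, and the SNORD14A fragment had the lowest share in libraries 1 and 2 and the second lowest in library 3, behind SNORD102 (14.3%). The reads from 22 to 91 were less spread, with 12 of 15, 3 of 5 and 12 of 16 in the largest record. Whether the records of the fragment come from different U14 copies was not tested.

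**Figure D4:**
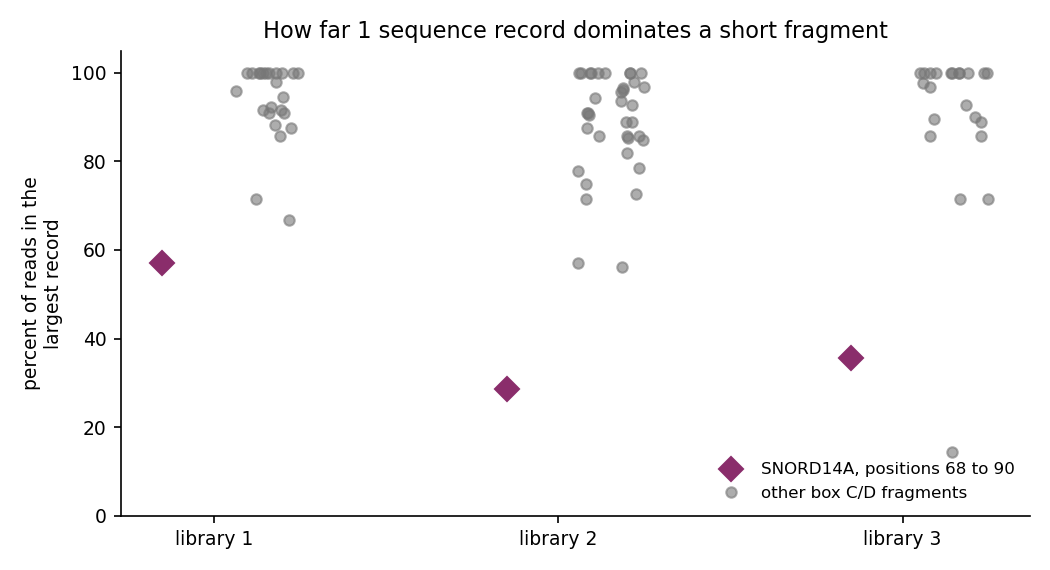
Share of a fragment's reads that fall in its largest record, for the SNORD14A fragment at 68 to 90 (diamonds) and for the other short ungapped box C/D fragments with at least 7 reads (dots, spread sideways for visibility), by library. The diamonds lie at 57.1%, 28.6% and 35.7%, below every dot except 1 in library 3.

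Short and long SNORD14A reads ended at different bases. Of the short reads that reached position 86 or beyond, 14 of 15, 7 of 10 and 44 of 49 ended at 90, and 1, 1 and 2 ended at 91. Of the reads over 40 nt that did so, 2 of 20, 0 of 6 and 4 of 31 ended at 90, and 17, 6 and 26 ended at 91. The difference of 1 base had the same direction in 3 of 3 libraries. Reads from positions 1 to 5 and reads from 22 gave the same picture, 13 of 15 and 36 of 42 ending at 91. The reads from 22, all gapped and of untested copy, were 17, 5 and 20 of the long reads. Those from 1 to 5 were only 3, 1 and 11, of which 2, 1 and 10 ended at 91. In most box C/D snoRNAs the 2 sizes shared their commonest last position. Of 65 entries with at least 10 reads of each size there, 53 had the same one, 10 an earlier one for short reads and 2 a later one. SNORD14A was 1 of 3 in which that of short reads lay exactly 1 base earlier, with SNORD67 and HBII_95B. In SNORD1A it lay 1 base later. This comparison was chosen after the SNORD14A values were seen and sums the libraries.

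Against the other box C/D snoRNAs, the pool of 20 to 24 nt reads held 15, 10 and 50 SNORD14A reads, which are 3.48% of 431, 2.11% of 474 and 11.3% of 443. SNORD14A ranked 5, 11 and 1 by this count in libraries 1, 2 and 3, so its place at the top of that pool rests on library 3. The snoRNAs most like it in their mean shares of short 3′, short 5′, other short and long reads, by Euclidean distance in percentage points over the 108 entries, were SNORD13 (20.2), SNORD77 (24.1) and then SNORD81. Their short 3′ reads made up a mean of 39.5%, 35.0% and 33.4% of reads. For SNORD13 the library values were 45.2%, 62.5% and 10.8%, beside 41.7%, 62.5% and 59.8% for SNORD14A, so the means of these 2 snoRNAs were set apart by library 3.

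SNORD13 (U13) also belongs to the list of snoRNAs grouped here under pre-rRNA processing, which was fixed with earlier results of these data known. In that list short reads lay at the 3′ end in 97.4% of cases for SNORD14A (74 of 76), 92.6% for SNORD13 (50 of 54), 92.9% for SNORA73A (13 of 14), 79.3% for SNORA73B (23 of 29), 58.1% for SNORD118, the U8 snoRNA of large subunit processing (43 of 74), 41.2% for U3 (56 of 136) and 38.9% for SNORD22 (7 of 18), over the 3 libraries together. Box C/D entries other than SNORD14A and SNORD14B together had 2496 of 6825 short reads there. SNORD14B had 1 of 4 and SNORD3B-2, a U3 copy, 0 of 2. The libraries differed in some of these, with 21 of 29, 16 of 24 and 6 of 21 for SNORD118 and 1 of 10, 2 of 4 and 4 of 4 for SNORD22, while SNORD14A had 15 of 15, 10 of 10 and 49 of 51. Reads of 20 to 24 nt numbered 18, 14 and 3 in SNORD13 and 22, 46 and 21 in U3. As shares of all snoRNA reads these are 0.0900%, 0.117% and 0.0157% for SNORD13 and 0.110%, 0.385% and 0.110% for U3, beside 0.0750%, 0.0836% and 0.262% for SNORD14A, which was highest in library 3, where SNORD13 was lowest. The position test compared reads centred in the 3′ and in the 5′ part of each snoRNA with edgeR over all 108 snoRNAs of any class with at least 10 placed reads in every library. Reads were placed by their midpoint, so a nearly full-length read lacking 1 end base counted for 1 part, and exactly centred reads were left out. SNORD100 had 645, 383 and 484 reads in the 5′ part, though a mean of 94.6% of its reads were over 40 nt. The test does not separate fragments from long reads trimmed at 1 end. It called 66.7% of them at an edgeR adjusted p under 0.05, and 26.9% toward the 3′ part. SNORD14A had 33, 15 and 70 reads in the 3′ part against 1, 0 and 3 in the 5′ part. Its remaining reads were exactly centred and so left out. The log2 ratio was 4.84 ± 0.60 (SE, n = 3), the third highest of those tested. This ratio is among the values that led to the choice of SNORD14A. Its 3′ part included 17, 5 and 20 long gapped reads from position 22, whose copy was not tested. The ratio is thus not one of short fragments alone. It was 4.51 with gapped records left out and 4.47 with reads spanning at most 50% of the snoRNA. Of the 5 other list members tested, SNORD118 (2.65 ± 0.33, edgeR adjusted p = 0.000789) and SNORD13 (3.27 ± 0.48, edgeR adjusted p = 0.00153) had more reads centred in the 3′ part. SNORD22 (-1.70 ± 0.55, edgeR adjusted p = 0.0343) had more centred in the 5′ part, and U3 (0.82 ± 0.49, edgeR adjusted p = 0.182) and SNORA73B (-1.71 ± 0.95, edgeR adjusted p = 0.153) did not pass. Thus 3 of the 5 were called, beside 66.7% of all snoRNAs tested. The SNORD118 call did not hold with reads spanning at most 50% of the snoRNA (1.44, edgeR adjusted p = 0.0865). That of SNORD22 did not hold without library 1 (-1.14, edgeR adjusted p = 0.232), without library 3 (-2.40, edgeR adjusted p = 0.0613) or with scaling per column by DESeq2 size factors (-0.93, edgeR adjusted p = 0.124) or TMM (-1.25, edgeR adjusted p = 0.0955). Over all snoRNAs tested, 29 were called toward 3′ and 43 toward 5′ with library totals, and 39 and 35 with DESeq2 size factors, which shifted the median log2 ratio to 0.027, against -0.75 with library totals. SNORD14B, SNORD3B-2 and SNORA73A had too few reads to be tested.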

How the data were processed

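Small RNA of HEK293 cells was sequenced in 3 libraries prepared from bead-purified small RNA with an Ion Torrent kit, per the labels' protocols. The deposited library files hold raw counts per record, with read length and first and last position in a snoRNA entry in nt, per the file headers. Per the submitters' processing notes the genome build was GRCh38.p10. The aligner and read trimming were not given in the sources used here. A deposited table of counts for the whole series gave 36 for SNORD14A in library 1, the sum of its records; 2 further columns in it fit no title among the samples and were left aside.

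The length of an entry was its highest position. Shares were averaged over libraries with equal weight, with exact (Clopper-Pearson) 95% intervals and a floor of 3 counts. The position test used edgeR 4.0.16 (quasi-likelihood F-test with a library block, scaled to library totals, Benjamini-Hochberg adjustment, SE taken as the log2 ratio over the root of F) and was checked on simulated data, and DESeq2 1.42.0 was an alternative. Copies were aligned with MAFFT 7.526. Python 3.11.15 and R 4.3.3 were used. The pairing parts were not searched against 18S rRNA, which was not used here.

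SNORD14A, the lists and the tests were chosen with earlier results of these data known. Named were the U14 entries, list members with at least 10 reads, the 3 snoRNAs nearest in profile, and the 5 leading SNORD14A fragments; further fragments and the snoRNAs beside the record and end comparisons were named after their values were seen. The labels name no separate cultures, so the spread behind each p-value is that between libraries and could be technical only.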

Additional observations from a re-analysis of the deposited data

How the results depend on the processing

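All values rest on 134 SNORD14A reads, 16 of them in library 2. Leaving out each library gave 0.157% to 0.305% for the share of SNORD14A, 51.3% to 61.7% for its 20 to 24 nt reads, 7.29% to 10.9% for full-length reads, 50.7% to 61.1% for short 3′ reads, 41.3% to 47.5% for the fragment at 68 to 90, and 52 to 99 snoRNAs called by position. Without gapped records reads of 20 to 24 nt made up 85.4%, short 3′ reads 84.8% and the leading fragment 69.9%, since the gapped reads from position 22 leave the total. With each record counted once full-length reads made up 13.4%; the cause was not tested. With reads spanning at most 50% of the snoRNA 21 of 44 snoRNAs were called by position, against 72 of 108 in the main setting. Both the number tested and the share called were thus lower. The SNORD14A log2 ratio stayed between 4.47 and 5.63 over the 11 alternatives to edgeR's main setting, with no replicate block (4.72) among them. With reads spanning at most 50%, the log2 ratios of U3 (-0.071) and SNORA73B (1.03) reversed and SNORD118 (1.44) was no longer called; the cause was not tested. Calls without the replicate block numbered 74. Without library 2, U3 (1.48) and SNORA73B (-2.86) were called, as were U3 with DESeq2 size factors (1.56) and SNORA73B without the block (-2.19). Windows of 18 to 25 nt, a limit of 30 nt and a span of 80% gave the same values as the settings reported, and so did leaving out opposite-strand records for the shares within SNORD14A.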
